A study of Homo sapiens with 9 samples.

Results

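BCL2 family genes encode the proteins that decide whether a mitochondrion releases its death signals, and 10 of them were followed by gene symbol through the transcriptomes of HaCaT keratinocytes. The 10 genes were the pro-survival members BCL2, BCL2L1, MCL1 and BCL2A1, the effectors BAX and BAK1, and the BH3-only genes BCL2L11, BBC3, PMAIP1 and BIK. They were chosen by name, with earlier results of these data known, out of 16199 genes listed in at least 1 library. Of the 10 genes, 9 were listed in the libraries and 8 passed the count filter that left 12394 genes for testing.

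HaCaT is an immortalized, non-tumorigenic line of human skin keratinocytes whose genotype was labelled WT. Confluent HaCaT cells were kept in serum free media as untreated controls, or received EGF (10 nM) or bleogen pB1 (1 µM) in serum free media for 24 h. The sample titles gave this time for the treated cells only. EGF is a natural ligand of the EGF receptor, and bleogen pB1 is a peptide from the cactus Pereskia bleo described as a non-canonical agonist of the same receptor. Each group had 3 libraries, and no label stated whether they came from separate cultures, so p-values measure the spread between these libraries only.

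The proteins work by binding one another. Pro-survival members hold BAX, BAK1 and the BH3-only proteins in check, BH3-only proteins released or newly made occupy the pro-survival members or activate the effectors, and active BAX and BAK1 open the outer mitochondrial membrane so that cytochrome c escapes and caspases are activated. In epithelial cells, growth factor receptors are known to act on this balance through transcription and protein stability, and only the transcript level was measured here.

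The libraries held between 20288417 and 21320994 expected counts (estimated fragments per gene), so 3 counts corresponded to 0.141 to 0.148 CPM (counts scaled to library size). All 7 keratinocyte markers were detected and tested, and their summed level was 9690 to 10800 CPM in untreated, 8141 to 8796 CPM in EGF-treated and 9916 to 11424 CPM in bleogen pB1-treated libraries. KRT5, a keratin of basal keratinocytes, averaged 7811, 3604 and 7217 CPM in the same order and made up most of these sums. KRT14, its partner keratin, averaged 1578, 2908 and 2200 CPM, and ITGA6, an integrin of basal cells, 582, 1436 and 806 CPM. With EGF 4 of these markers were called higher and 2 lower, and with bleogen pB1 1 was called higher, beside 3 at an adjusted p of at most 0.05. Of 10 markers of fibroblasts, melanocytes, endothelium and leukocytes, only COL1A1 and PMEL passed the count filter. The summed level of the 10 was 4.15 to 5.30 CPM in untreated, 1.86 to 2.21 CPM in EGF-treated and 3.71 to 4.59 CPM in bleogen pB1-treated libraries, and PDGFRA, CD3E and DCT had at most 1 count in any library. COL1A1 and PMEL were both called lower by edgeR in the EGF-treated cells, while DESeq2 called 1 of the 10 markers lower and limma 0. PMEL had 26 to 30 counts in untreated and 9 to 20 in EGF-treated libraries (edgeR adjusted p = 0.040). The part of these genes in the results below was not tested. In bulk RNA, fewer cells of a kind and less RNA per cell cannot be told apart.

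The 4 members called in any comparison are introduced first by their promoters, taken from RefSeq (GRCh38.p14) as 250 bases before and 50 bases after the annotated start. They are shown because these genes moved in different directions in the same cells. Windows of 6 of the 10 members were searched on both strands for a small set of motifs, and capitals mark their matches. The FOXO core was read as GTAAACA and the GC box as GGGCGG. The E-box was read as the palindrome CACGTG and the AP-1 site as TGANTCA. The ETS core was read as CCGGAAG and a STAT site as TTCNNNGAA.
BCL2L11 chr2:111120664-111120963 (+): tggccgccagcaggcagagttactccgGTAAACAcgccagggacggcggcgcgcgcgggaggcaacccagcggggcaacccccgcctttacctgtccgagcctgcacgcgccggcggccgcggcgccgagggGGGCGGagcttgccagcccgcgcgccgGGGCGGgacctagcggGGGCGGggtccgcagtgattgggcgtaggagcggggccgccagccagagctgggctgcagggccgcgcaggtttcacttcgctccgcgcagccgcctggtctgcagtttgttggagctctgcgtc
BBC3 chr19:47232618-47232917 (-): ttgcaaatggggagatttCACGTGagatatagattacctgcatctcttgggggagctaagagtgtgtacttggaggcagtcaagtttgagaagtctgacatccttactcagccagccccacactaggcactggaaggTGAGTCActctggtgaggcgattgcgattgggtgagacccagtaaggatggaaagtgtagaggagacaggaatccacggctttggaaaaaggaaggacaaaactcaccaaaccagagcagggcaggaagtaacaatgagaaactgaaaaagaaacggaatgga
BAX chr19:48954625-48954924 (+): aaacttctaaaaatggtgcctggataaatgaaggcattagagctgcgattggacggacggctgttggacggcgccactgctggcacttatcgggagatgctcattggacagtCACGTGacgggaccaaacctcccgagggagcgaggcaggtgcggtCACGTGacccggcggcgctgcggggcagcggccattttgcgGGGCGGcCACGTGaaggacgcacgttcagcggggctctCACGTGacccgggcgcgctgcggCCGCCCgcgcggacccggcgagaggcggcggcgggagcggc
BCL2L1 chr20:31723914-31724213 (-): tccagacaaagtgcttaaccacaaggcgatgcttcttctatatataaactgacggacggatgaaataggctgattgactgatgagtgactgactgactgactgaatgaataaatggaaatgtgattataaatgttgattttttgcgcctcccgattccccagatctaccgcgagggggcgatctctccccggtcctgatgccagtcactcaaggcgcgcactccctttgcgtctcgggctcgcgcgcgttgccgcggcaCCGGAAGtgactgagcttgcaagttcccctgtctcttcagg

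The BCL2L11 window was the richest in G and C of the 4, at 74.7%. It held a FOXO core at position -223 from the annotated start, a motif found in 3.42% of 35116 RefSeq promoter windows of the same length, and 3 GC boxes, a motif found in 45% of them. The BBC3 window held an E-box at -232 and an AP-1 site at -113, and these motifs occurred in 7.26% and 7.71% of all windows. The BAX window held 4 E-boxes, at -138, -93, -45 and -14, and GC boxes at -52 and 10. Of the 35116 windows 5 (0.0142%), BAX included, held 4 or more E-boxes, a cutoff taken from the BAX window itself. The BCL2L1 window held an ETS core at 10, a motif present in 10.3% of windows, and a second start listed for BCL2L1 lay downstream at chr20:31722819-31723118. The STAT site, found in 7.66% of windows, had no match in these 4 windows. A match describes the letters only, and binding was not measured.

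At rest the family was led by MCL1, a short-lived pro-survival protein, on the scale of FPKM, which divides the counts by transcript length and library size. The FPKM level of MCL1 in untreated cells was 102.6 ± 3.32 (SD, n = 3). It was followed by BAX at 59.6 ± 1.28 FPKM and by BCL2L1, the gene of BCL-XL, at 50.7 ± 2.00 FPKM. PMAIP1, which encodes NOXA, a BH3-only protein that binds MCL1, had a level of 46.2 ± 3.36 FPKM, and its libraries overlapped those of BCL2L1. BAK1 with 20.1, 20.2 and 19.7 FPKM and BIK, a BH3-only protein of the endoplasmic reticulum, at 17.6 ± 2.45 FPKM also overlapped. BBC3, which encodes PUMA, and BCL2L11, which encodes BIM, shared the lowest place among the well detected members at 6.12 ± 0.342 and 5.77 ± 0.651 FPKM. All other neighbours in this order did not overlap. In the EGF-treated cells the levels of BAX (96.6 ± 12.6 FPKM) and BCL2L1 (81.7 ± 6.67 FPKM) overlapped, as did those of BCL2L11 and BBC3. In the bleogen pB1-treated cells no neighbours overlapped, and PMAIP1 (52.8 ± 3.42 FPKM) stood above BCL2L1 (45.6 ± 2.13 FPKM).

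**Figure D1:**
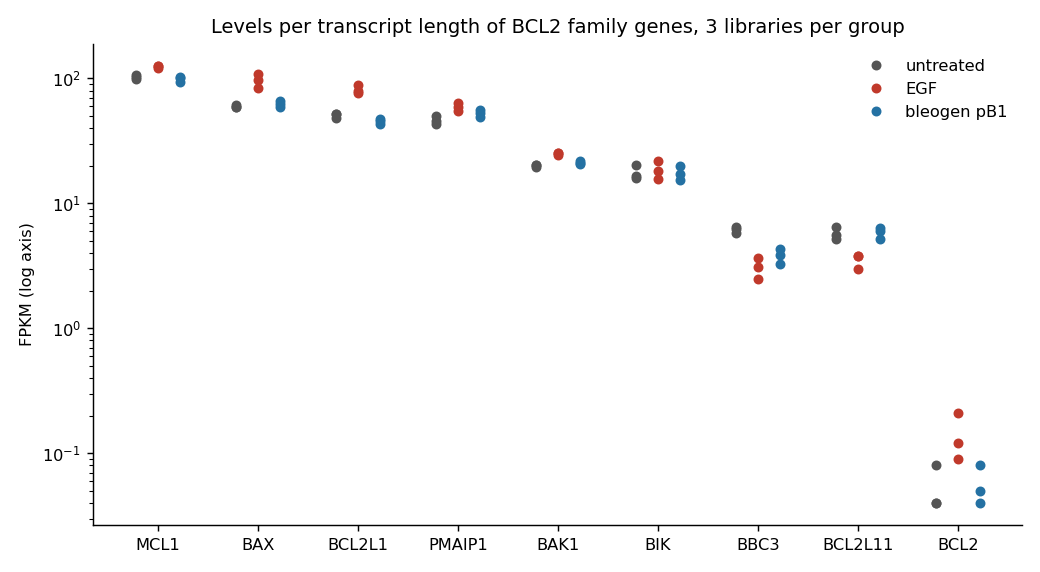
FPKM of the 9 listed members (log axis) in each library, with 3 points per group in grey (untreated), red (EGF) and blue (bleogen pB1), ordered by the untreated mean. MCL1 was the highest member in every library and BCL2 the lowest, and BBC3 and BCL2L11 lay together near 6 FPKM in untreated cells but below 4 FPKM in the EGF-treated cells.

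BCL2 itself, the founding pro-survival gene of the family, was barely transcribed. It was counted 9, 4 and 4 times in the untreated libraries, 6, 8 and 8 times in the EGF-treated libraries and 5, 3 and 5 times in the bleogen pB1-treated libraries. These counts stood at or little above 3, they overlapped between untreated and EGF-treated cells, and BCL2 did not pass the count filter. BCL2A1, a pro-survival gene best known from blood cells and induced by NF-kB, had no entry in any of the 9 libraries and was counted as 0 by the rule. A gene left out of the annotation cannot be told apart from a gene without reads in these tables, so no limit on its level is given. Among the 4 pro-survival members, MCL1 and BCL2L1 were thus the ones with enough counts to test.

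EGF treatment for 24 h moved 4 of the 8 tested members and moved them in both directions. BAX and BCL2L1 rose, by 1.70-fold and 1.67-fold, while BBC3 and BCL2L11 fell to 0.538 and 0.562 of their untreated level. A gene was called when its edgeR adjusted p was at most 0.05 and its log2 fold change at least 0.5 in size. By this rule 15.1% of all tested genes were higher and 21.8% were lower with EGF, beside 2 of 8 members in each direction, so that calls with EGF were common among all genes. On the adjusted p alone 7 of 8 members passed, beside 66.1% of all genes.

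BCL2L1 was the member with the smallest adjusted p under EGF. Its expected counts were 2662, 2595 and 2492 in untreated libraries and 3929, 4530 and 4212 in the EGF-treated libraries, and no EGF-treated library came near the untreated range. The log2 fold change was 0.74 (edgeR adjusted p = 1.1e-06, SE 0.0675), larger in size than that of 75.9% of the genes tested. MCL1, the other pro-survival member tested, was counted 8520, 8116 and 8807 times in untreated and 10572, 10012 and 10845 times in EGF-treated libraries. Its groups did not overlap either, but the log2 fold change of 0.34 (edgeR adjusted p = 0.00016, SE 0.0559) lay below the limit of 0.5.

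BAX, the effector that moves from the cytosol to mitochondria, was counted 973, 1006 and 976 times in untreated and 1398, 1820 and 1701 times in EGF-treated libraries. The first EGF-treated library was the lowest of its group and still stood above every untreated library. The log2 fold change of BAX was 0.77 (edgeR adjusted p = 7.9e-06, SE 0.0885). BAK1, the effector that resides on mitochondria, had 881, 874 and 865 counts in untreated and 1080, 1116 and 1158 counts in EGF-treated libraries, the tightest groups among the members. Its log2 fold change of 0.39 (edgeR adjusted p = 9.1e-05, SE 0.0601) did not reach the fold limit.

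The BH3-only members split. BCL2L11, which binds all pro-survival members and can activate BAX and BAK1, was counted 607, 510 and 564 times in untreated and 319, 296 and 308 times in EGF-treated libraries. Every EGF-treated library held fewer counts than the lowest untreated library, and the log2 fold change was -0.83 (edgeR adjusted p = 1.1e-05, SE 0.0995). The transcript length deposited for BCL2L11 varied between libraries, so that its mean FPKM went from 5.77 to 3.53 ± 0.468, a smaller step than that in counts.

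BBC3, whose protein binds all pro-survival members, was counted 219, 213 and 202 times in untreated and 89, 130 and 114 times in EGF-treated libraries. It had the largest change of the 8 members in size, with a log2 fold change of -0.90 (edgeR adjusted p = 0.00017, SE 0.150), larger than that of 81.6% of all genes tested. The 4 calls of BAX, BCL2L1, BCL2L11 and BBC3 held under all 17 alternative fits tried for each of them at the same limits, and at a log2 fold change of at least 1 none of them was called.

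PMAIP1 went the other way from BCL2L11 and BBC3. Its counts were 1756, 1656 and 1934 in untreated and 2482, 2144 and 2413 in EGF-treated libraries, with a log2 fold change of 0.43 (edgeR adjusted p = 0.00019, SE 0.0729) that stayed under the fold limit. BIK was counted 303, 371 and 292 times in untreated and 291, 405 and 351 times in EGF-treated libraries. These groups overlapped, and the log2 fold change of BIK was 0.15 (95% interval -0.16 to 0.46, edgeR adjusted p = 0.38). For single genes the exact permutation test of 3 against 3 libraries cannot give a two-sided p under 0.1. The members without overlap reached this value, but the share of all tested genes without overlap was not computed.

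**Figure D2:**
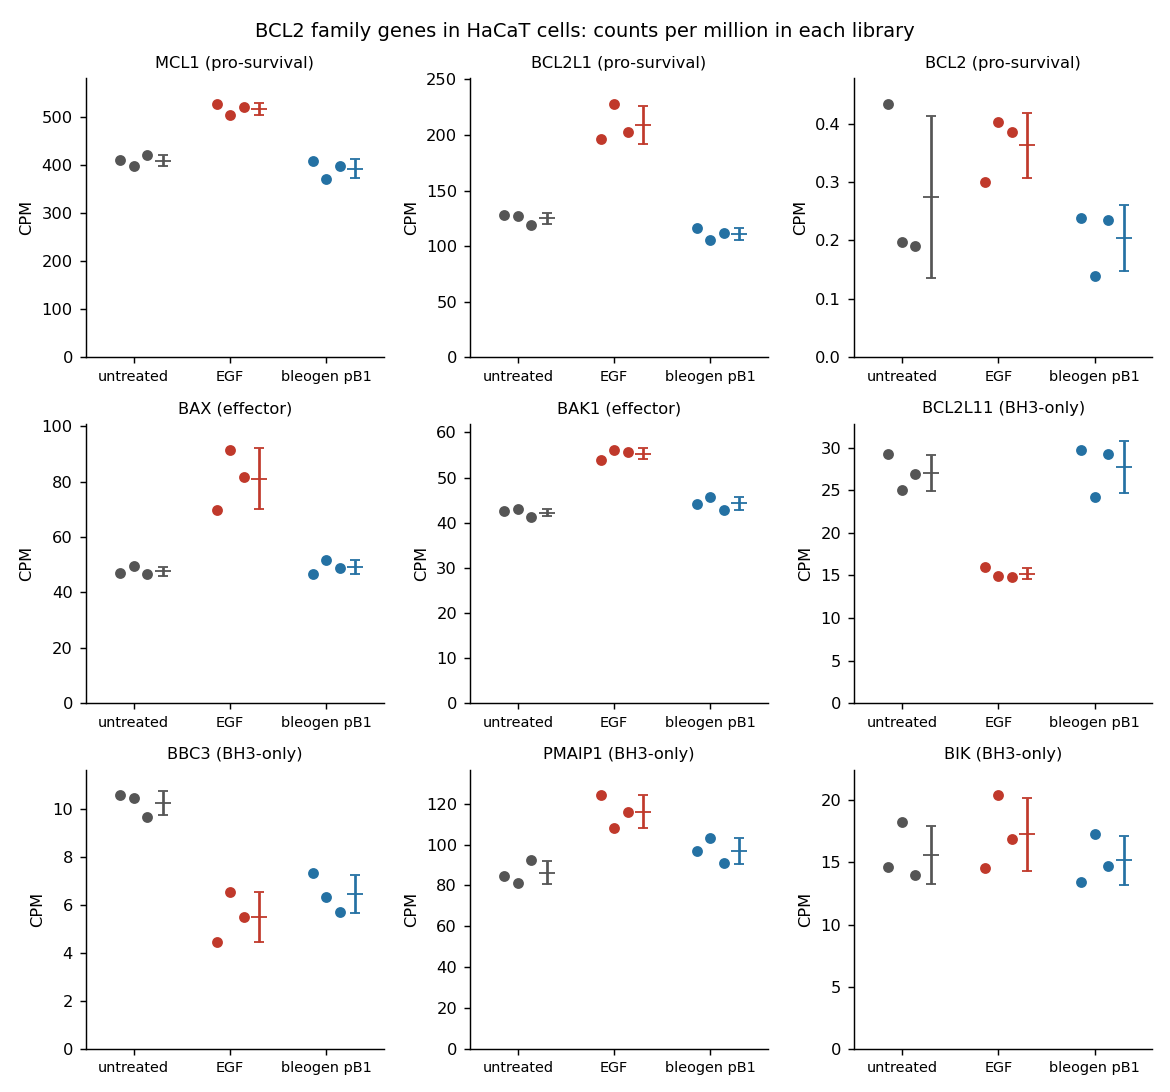
CPM of the 9 listed members in each library (points), with the mean and SD of the 3 libraries of each group beside them and each axis starting at 0. EGF-treated libraries lay above the untreated ones for MCL1, BCL2L1, BAX, BAK1 and PMAIP1 and below them for BCL2L11 and BBC3, while bleogen pB1-treated libraries stood apart from untreated ones for BBC3 and, narrowly, BCL2L1.

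Bleogen pB1 left nearly all members near their untreated level, and BBC3 was the 1 member that fell. By the same rule 0.218% of all tested genes were called higher and 1.26% lower with bleogen pB1, and 4.11% passed on the adjusted p alone. Among the 8 members 0 were called higher by edgeR, as by DESeq2 and limma, and PMAIP1 was the 1 member higher at an unadjusted p under 0.05.

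BBC3 was counted 153, 136 and 122 times in the bleogen pB1-treated libraries, all below the lowest untreated library (202 counts). Its log2 fold change was -0.67 (edgeR adjusted p = 0.027, SE 0.147), larger in size than that of 97.4% of genes in this comparison. The call was made in 10 of 17 alternative settings. With 1 library left out it was made in 1 of 6 fits, without bleogen pB1 replicate 1 (edgeR adjusted p = 0.011), and the adjusted p of the other 5 fits reached 0.14, for example without untreated replicate 1 or bleogen pB1 replicate 3. DESeq2 gave -0.67 with an adjusted p of 0.0038, and limma on log2(FPKM + 1) over all listed genes gave -0.57 with an adjusted p of 0.063.

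BCL2L1 in bleogen pB1-treated cells was counted 2434, 2269 and 2380 times, just under the untreated range. Its log2 fold change of -0.17 (95% interval -0.32 to -0.02) had an edgeR adjusted p of 0.16 and was no call. PMAIP1 was counted 2027, 2226 and 1938 times, with a log2 fold change of 0.17 (95% interval 0.01 to 0.33, edgeR adjusted p = 0.19). The lowest of these values, 1938, was 4 counts from the highest untreated value, 1934, and on the scale of CPM the groups overlapped.

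The remaining members had intervals around 0 in the comparison of bleogen pB1 with untreated cells. The log2 fold change was 0.07 (-0.06 to 0.20) for BAK1, with 925, 985 and 916 counts, and 0.04 (-0.15 to 0.24) for BAX, with 978, 1116 and 1042 counts. For MCL1, with 8563, 8006 and 8517 counts, the log2 fold change was -0.06 (-0.18 to 0.06). BCL2L11, with 624, 522 and 625 counts, had 0.04 (-0.17 to 0.24), and BIK, with 281, 373 and 315 counts, had -0.04 (-0.35 to 0.27). The log2 fold changes seen with EGF lay outside the bleogen pB1 intervals for BAX, BCL2L1, BCL2L11, MCL1, BAK1 and PMAIP1. Those of BIK (0.15) and BBC3 (-0.90) lay within theirs, and the interval of BIK reached down to -0.35.

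**Figure D3:**
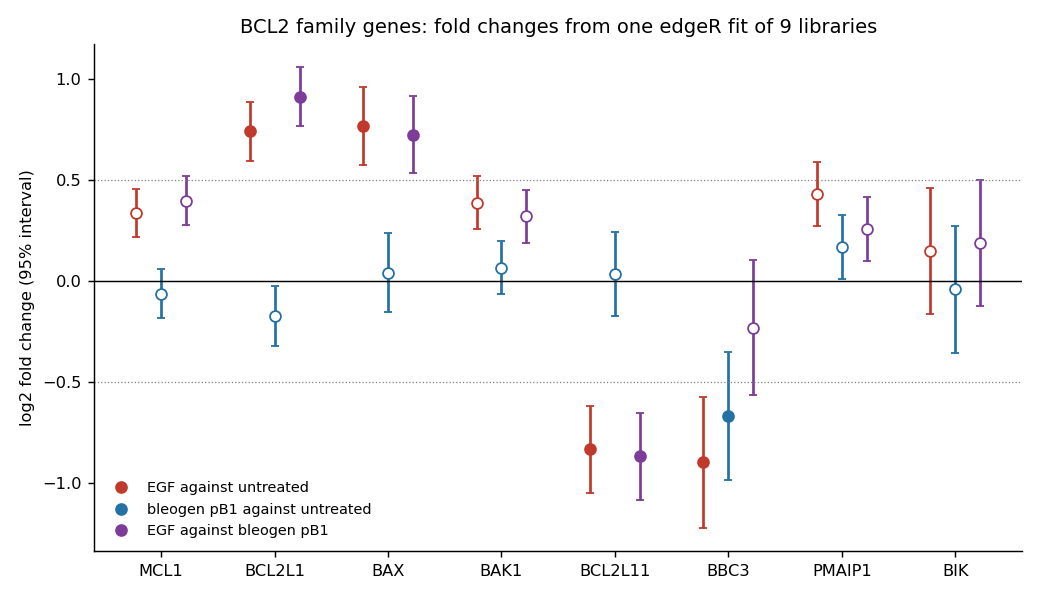
Log2 fold change of the 8 tested members with 95% intervals in 3 comparisons from 1 edgeR fit of the 9 libraries, with filled points for called genes, open points for the others and dotted lines at the limit of 0.5 in either direction. BCL2L1 and BAX lay above and BCL2L11 below the lines in both comparisons of EGF, and BBC3 lay below the line against untreated cells with either treatment.

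EGF and bleogen pB1 were also compared with each other, at doses that differ (10 nM and 1 µM), so that the contrast is one of these treatments and not of the agonists at matched dose. BCL2L1 was higher in the EGF-treated cells by 0.91 on the log2 scale (edgeR adjusted p = 2.8e-07, SE 0.0677) and BAX by 0.72 (edgeR adjusted p = 2.0e-05, SE 0.0883). BCL2L11 was lower, with a log2 fold change of -0.87 (edgeR adjusted p = 1.2e-05, SE 0.0992). These were 3 calls among 8 members, beside 10.8% of all genes called higher and 18% called lower, and 6 of 8 members passed on the adjusted p alone beside 58.2% of all genes.

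BBC3 was the called member for which the treatments were not separated. The log2 fold change of EGF against bleogen pB1 was -0.23, with a 95% interval from -0.56 to 0.11 and an edgeR adjusted p of 0.22, and the libraries of the treatments overlapped. The interval leaves room for a lower level with EGF. Both treatments were compared with the same 3 untreated libraries, so their BBC3 values against untreated cells are not independent. PMAIP1 (0.26, edgeR adjusted p = 0.0081), MCL1 (0.40, edgeR adjusted p = 6.3e-05) and BAK1 (0.32, edgeR adjusted p = 0.00055) were higher with EGF than with bleogen pB1 but under the fold limit, and BIK stood at 0.19 (edgeR adjusted p = 0.28).

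Within the summed FPKM of the members, the share of the pro-survival genes was 49.1% to 50.1% in untreated libraries and 49.0% to 51.2% in EGF-treated libraries. The share of the effectors was 25.3% to 26.4% in untreated and 27.3% to 31.3% in EGF-treated libraries, and that of the BH3-only genes 24.2% to 24.9% and 19.7% to 21.5%. The ranges of untreated and EGF-treated libraries thus overlapped for the pro-survival genes and did not overlap for the other roles. The summed FPKM of the BH3-only genes was itself higher with EGF, at 83.8 to 85.4 beside 74.9 to 77.2 in untreated libraries, and that of the pro-survival genes was 203 to 210 beside 151 to 155, so the lower BH3-only share is no lower total. PMAIP1 made up most of the BH3-only sum, with a mean of 46.2 FPKM in untreated and 59.5 FPKM in EGF-treated cells. BCL2L11 and BBC3, which fell, added little to it. With bleogen pB1 the pro-survival share was 44.2% to 48.7%, below every untreated library, the effector share was 25.9% to 28.4% and the BH3-only share was 24.8% to 27.4%.

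Ratios of partner genes within a library, chosen after the values were seen, described the same data without any scaling between libraries. The ratio of BCL2L1 to BCL2L11 counts was 4.39, 5.09 and 4.42 in untreated and 12.3, 15.3 and 13.7 in EGF-treated libraries. The difference was 1.57 on the log2 scale (SE 0.114, exact permutation p = 0.1, the smallest possible). Counts of BCL2L1 rose and those of BCL2L11 fell without overlap, so this separation and p were fixed in advance and add no support. In bleogen pB1-treated libraries the ratio of BCL2L1 to BCL2L11 was 3.90, 4.35 and 3.81, narrowly below every untreated library. The log2 difference was -0.20 (SE 0.0912). The ratio of BCL2L1 to BAX was 2.62 ± 0.0987 in untreated and 2.59 ± 0.189 in EGF-treated cells (SD, n = 3), and these libraries overlapped. A pro-survival gene and an effector therefore rose side by side under EGF, with a log2 difference of their ratio of -0.02 (SE 0.0673). In bleogen pB1-treated cells the ratio of BCL2L1 to BAX was 2.27 ± 0.228 (SD, n = 3), with all 3 libraries under the untreated range. The highest, 2.49, lay close to the lowest untreated value, 2.55, and the log2 difference was -0.21 (SE 0.0900). Both ratios hold BCL2L1, which was not called with bleogen pB1, so they are not separate observations.

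MCL1 and its partner PMAIP1 had count ratios of 4.77 ± 0.188 in untreated cells, 4.47 ± 0.206 with EGF and 4.07 ± 0.420 with bleogen pB1 (SD, n = 3). The EGF-treated libraries overlapped the untreated ones and the bleogen pB1-treated libraries did not, at a log2 difference of -0.23 (SE 0.0944). The share of all gene pairs whose ratio separates in this way was not computed. The ratio of MCL1 to BAK1 was 9.71 ± 0.449, 9.38 ± 0.409 and 8.89 ± 0.664 in the same order, and the libraries of each treatment overlapped the untreated ones.

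**Figure D4:**
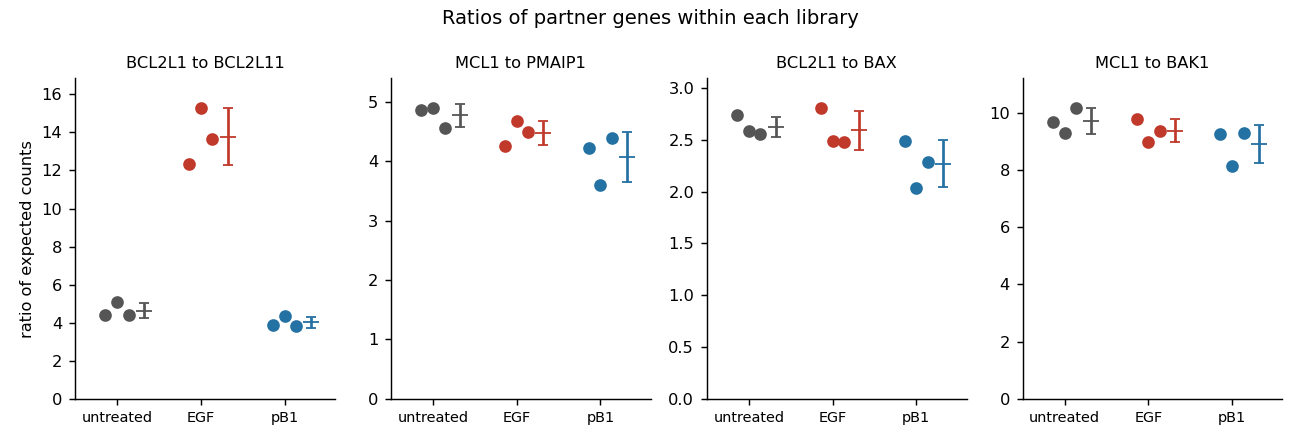
Ratio of expected counts of 4 gene pairs within each library (points) with the mean and SD of each group, each axis starting at 0. The ratio of BCL2L1 to BCL2L11 went from between 4.39 and 5.09 in untreated to between 12.3 and 15.3 in EGF-treated libraries, while the ratio of BCL2L1 to BAX stayed between 2.48 and 2.81 in both.

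Other BCL2 family genes were read from a list of 13, of which 9 passed the count filter. With EGF 0 of these were called higher and 2 were called lower by edgeR, BMF and HRK, both BH3-only genes. Of all genes 15.1% were called higher and 21.8% lower, so the share called lower lay near that of all genes. On the adjusted p alone 7 of the 9 passed, beside 66.1% of all genes. DESeq2 and limma on log2(FPKM + 1) called 0 higher and 1 lower each, and 3 were higher at an unadjusted p under 0.05. BMF, known for its response to loss of attachment, was counted 264, 230 and 216 times in untreated libraries and 13, 19 and 11 times in EGF-treated libraries. This was the largest change in the family, with a log2 fold change of -4.00 (edgeR adjusted p = 3.2e-07, SE 0.313), and it was called in all 18 settings.

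In bleogen pB1-treated libraries BMF was counted 331, 160 and 235 times, so that the spread within the group spanned the untreated range. HRK was near the floor, at 1.21, 1.08 and 1.00 CPM in untreated and 0.550, 0.604 and 0.530 CPM in EGF-treated libraries, with a log2 fold change of -0.96 (edgeR adjusted p = 0.0093, SE 0.284). With HRK and BMF included, 4 of the 8 BH3-only genes tested fell with EGF, beside 21.8% of all genes called lower, and PMAIP1, BIK, BID and BAD were not called. HRK was called in 15 of the 17 settings that tested it, and not by DESeq2 or by limma on log2(FPKM + 1). With bleogen pB1, BBC3 was called lower among these 8, while HRK had a log2 fold change of -0.54 (edgeR adjusted p = 0.26) without overlap of its libraries with the untreated ones. In the same comparison 0 of the other 9 family genes were called by edgeR, DESeq2 or limma, with 1 at an unadjusted p under 0.05. The other tested family genes included BCL2L2, a pro-survival gene, at 0.19 (edgeR adjusted p = 0.047), and BID, which links death receptors to mitochondria, at -0.24 (edgeR adjusted p = 0.0036) with EGF.

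Downstream of the mitochondrion, 18 genes of the death pathway were tested. With EGF 2 were called higher and 0 lower by edgeR, beside 15.1% and 21.8% of all genes. At an unadjusted p under 0.05, 3 were lower, and 0 were called lower by DESeq2 or limma. HTRA2, a mitochondrial protease that counters inhibitors of caspases, rose by 0.80 on the log2 scale (edgeR adjusted p = 5.7e-05, SE 0.117). BIRC3, an inhibitor of apoptosis, was counted 684, 610 and 777 times in untreated and 1042, 3107 and 2356 times in EGF-treated libraries (log2 fold change 1.69, SE 0.314, edgeR adjusted p = 0.00040). Its EGF-treated libraries differed widely but did not reach the untreated range.

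APAF1, the scaffold of the apoptosome, had a log2 fold change of -0.05 (edgeR adjusted p = 0.51) and CASP9, the caspase it activates, -0.44 (edgeR adjusted p = 0.055). With bleogen pB1 0 of the 18 genes were called by edgeR, DESeq2 or limma, and 2 were higher at an unadjusted p under 0.05. The median log2 fold change of the 18 genes was 0.19 with EGF and 0.05 with bleogen pB1, beside -0.01 and -0.00 over all genes tested. For the 8 members the medians were 0.36 and -0.00.

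Known regulators of the family were read from 15 genes, all tested. With EGF 4 were called lower, beside 21.8% of all genes, and 1 higher, beside 15.1% of all genes, so that these shares lay near those of all genes. The 1 called higher was TP63, the transcription factor of basal keratinocytes, which stood at the limit with 0.50 (edgeR adjusted p = 0.00016) and was not called by limma on log2(FPKM + 1). TP73, a related factor, fell by 2.05 on the log2 scale (edgeR adjusted p = 2.4e-06). FOXO4 fell by 1.24 (edgeR adjusted p = 2.8e-06) and FOXO1 fell by 0.94 (edgeR adjusted p = 3.2e-06) on the log2 scale, both genes of forkhead factors for which BCL2L11 and BBC3 are described targets. IRF1, an interferon-responsive factor, fell by 0.61 on the log2 scale (edgeR adjusted p = 6.7e-05). FOXO1 counts went from 622, 622 and 593 in untreated to 317, 307 and 310 in EGF-treated libraries.

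With bleogen pB1 0 of the 15 regulators were called by edgeR, DESeq2 or limma, and 2 were higher and 5 lower at an unadjusted p under 0.05. On the adjusted p alone 2 of the 15 passed, FOXO3 and E2F1, beside 4.11% of all genes. FOXO3 had a log2 fold change of -0.43 with an edgeR adjusted p of 0.024, under the fold limit. Its value with EGF was -0.49 (edgeR adjusted p = 0.00050). E2F1 went the other way and also stayed under the fold limit. It had 0.39 (edgeR adjusted p = 0.019) with bleogen pB1 and 0.44 (edgeR adjusted p = 0.00034) with EGF. The median log2 fold change of the 15 genes was -0.22 with EGF and -0.08 with bleogen pB1. These are values of transcripts, and whether any regulator acts on a member here was not tested.

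**Figure D5:**
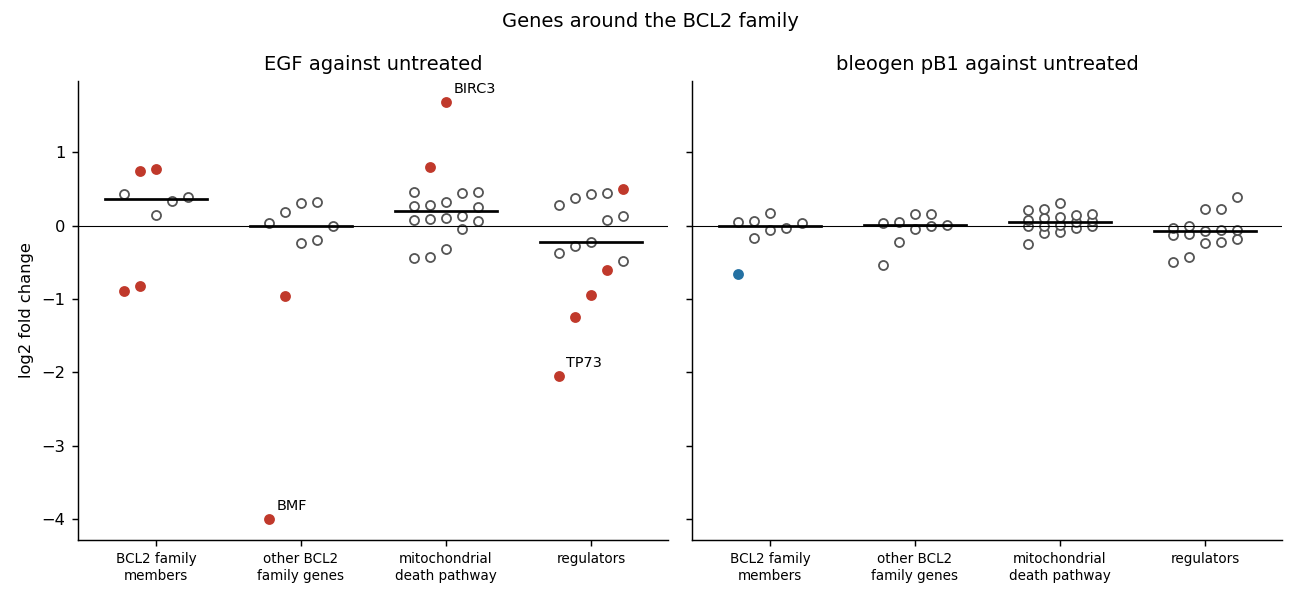
Log2 fold change of each tested gene in 4 lists for EGF (left) and bleogen pB1 (right) against untreated cells, with filled points for called genes, open points for the others and a bar at the median of each list. BMF lay lowest at -4.00 with EGF, and with bleogen pB1 only BBC3 was called.

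For the members with the largest F over the 3 groups, the genes of most similar pattern were sought among 10868 genes with a mean of at least 50 counts. BCL2L1 (F = 109) was most like OCIAD2 (Pearson r = 0.995), IRS2 (r = 0.994) and TOR4A (r = 0.993) in log2 CPM over the 9 libraries. BAX (F = 50.2) was most like IL23A (r = 0.997), BCAP31 (r = 0.996) and CEBPB (r = 0.996). These 9 points form 3 groups, and the correlations describe group levels and spread together.

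Overlapping transcripts limit some of these values. In GENCODE 44 the exons of BCL2L11 share 727 bases with MIR4435-2HG on the opposite strand. Those of BCL2L1 share 1735 bases with ABALON and those of MCL1 share 43 bases with ADAMTSL4, both also opposite. Further opposite pairs are BMF with BMF-AS1 (461 bases), BAK1 with GGNBP1 (91 bases) and BBC3 with MIR3190 (80 bases). The libraries were made with a strand-marking protocol, but whether strand was used in counting was not given in the sources used here. Reads of such pairs may therefore not be told apart. On the same strand, MCL1 shares 328 exon bases with ADAMTSL4-AS1 and BBC3 shares 76 with MIR3191. Strand cannot separate the reads of these pairs.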

How the data were processed

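RNA of 9 HaCaT libraries in 3 groups of 3 was sequenced by BGI. Per the labels and methods, reads were mapped to GRCh38.p12, and the counting program, its version and its use of strand were not given in the sources used here. Expected counts, as deposited, are unscaled estimates per gene, and the deposited FPKM values divide them by effective transcript length and library size. A gene without an entry was counted as 0.

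Rounded counts went into edgeR 4.0.16 under R 4.3.3 (filterByExpr, TMM, glmQLFit and glmQLFTest, 9 libraries in 1 fit, Benjamini-Hochberg adjustment over 12394 genes), with code tested on simulated data. The SE is |log2 fold change| over the square root of F. Genes were called at an adjusted p up to 0.05 with a log2 fold change of at least 0.5 in size, the thresholds of the study. Alternatives used DESeq2 1.42.0, limma 3.58.1 on log2(FPKM + 1) or log2(FPKM + 0.1), other scalings, filters, limits and libraries left out. Exact permutation tests were two-sided on CPM or log2 ratios.

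All 10 members are named, with at most 4 called genes per list and comparison (smallest adjusted p), at most 2 others that define a role, and 3 genes of most similar pattern for each of 2 members. COL1A1, PMEL, KRT5, KRT14, ITGA6, TP63 and E2F1 were named after their values were seen. Members and lists were chosen with earlier results of these data known. A gene and the results that need it are not reported here.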

Additional observations from a re-analysis of the deposited data

How the results depend on the processing

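Over the single members, 396 of 408 values under another fit kept their direction and their side of the threshold. In the comparison of bleogen pB1 with untreated cells, 7 values of BBC3 lost the call and 5 uncalled values near 0 changed sign when 1 library was left out. With each library left out in turn BCL2L11 lay between -0.0182 and 0.122 (below 0 without untreated replicate 2, bleogen pB1 replicate 1 or bleogen pB1 replicate 3), and BIK between -0.149 and 0.0873 (above 0 without untreated replicate 2 or bleogen pB1 replicate 1). With EGF against untreated cells, 4 members called became 7 on the adjusted p alone and 0 at a log2 fold change of at least 1. With EGF against bleogen pB1, 3 became 6 and 0 under the same limits. With bleogen pB1 against untreated cells, 1 became 0 at a log2 fold change of at least 1, under limma on log2(FPKM + 1) and under limma on log2(FPKM + 0.1), and leaving out single libraries gave 0 to 1. Fitting the replicate block left 4, 1 and 3 members called for EGF against untreated, bleogen pB1 against untreated and EGF against bleogen pB1. Deviations of same-numbered libraries correlated between -0.0304 and 0.207, and those of differently numbered libraries between -0.253 and 0.163. The mean was higher for same-numbered libraries in each comparison, and whether the replicate numbers pair the libraries was not settled. BCL2 was called with EGF by limma on log2(FPKM + 0.1) (0.63, adjusted p = 0.024), at 4 to 9 counts per library. Upper-quartile factors moved the median of all genes with EGF from -0.01 to -0.12 and the split of calls from 1875 higher and 2703 lower to 1396 and 3221. Over all genes, bleogen pB1 gave 27 higher and 156 lower, against 100 and 336 without bleogen pB1 replicate 1, 13 and 89 without untreated replicate 1, 14 and 88 without bleogen pB1 replicate 3, 15 and 94 without bleogen pB1 replicate 2 and 17 and 82 under limma on log2(FPKM + 1). The causes were not tested. Depth limits what can be said of BCL2, BCL2A1 and HRK.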
